A study of Homo sapiens with 6 samples.

Results

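Ribosomal RNA copies and spliceosomal small nuclear RNAs (snRNAs) were examined in IMR90 cells, primary human fetal lung fibroblasts, in which a short hairpin RNA (shRNA) targeted the histone variant macroH2A1. The comparison group was 3 libraries from cells with a luciferase shRNA, and 3 libraries came from cells with the macroH2A1 shRNA; every library therefore carried a hairpin, and the series calls the libraries of a group biological replicates. The members were the rows of the gene count tables that GENCODE 29 types as rRNA, rRNA_pseudogene or snRNA and whose raw counts added up to at least 30 over the 6 libraries, so the members were chosen by their raw counts and their levels are a description. This rule kept 464 of 57659 gene rows, and 2293 rows had one of these types. The members were 7 rRNA, 30 rRNA_pseudogene and 427 snRNA rows. Values are given for 460 of them, since 4 lie on chromosome Y and are counted only. Just inside the threshold, RNA5SP283 and RNU6-923P each had 30 counts, and just outside it RNA5SP199 and RNU6-338P each had 29.

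Ribosomal 5S RNA is made by RNA polymerase III and 5.8S RNA is cut from the long precursor made by RNA polymerase I, and both are parts of the large ribosomal subunit. The snRNAs form the core of the spliceosome, in which U1 pairs with the 5′ splice site, U2 with the branch point, U4 holds U6 inactive until the catalytic centre forms, and U5 aligns the exons. U6 and U6atac are RNA polymerase III products, while the other spliceosomal snRNAs are made by RNA polymerase II. U11, U12, U4atac and U6atac serve the minor spliceosome, and U7 acts in the 3′ end processing of replication-dependent histone transcripts. The genome also holds many degenerate copies of these genes, most of them annotated as pseudogenes, with a symbol ending in P or containing SP.

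The sequences below were read from GENCODE 29 transcripts (GRCh38) by Ensembl gene identifier and are printed 5′ to 3′ with T for U. They show how members can differ from the reference of their family. The first lines are the references for U1 and U4. In U1 capitals mark the segment that pairs with the 5′ splice site, and in U4 nothing is marked.
RNU1-1: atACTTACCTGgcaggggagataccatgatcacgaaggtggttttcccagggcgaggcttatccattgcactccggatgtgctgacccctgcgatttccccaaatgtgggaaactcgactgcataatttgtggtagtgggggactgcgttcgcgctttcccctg
RNU4-2: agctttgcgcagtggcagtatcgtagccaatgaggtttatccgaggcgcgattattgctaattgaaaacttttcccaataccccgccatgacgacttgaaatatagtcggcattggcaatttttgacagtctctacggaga

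The next lines show members described below, a major U4 gene and a U1 copy that rose, with capitals at each base that differs from, or is inserted against, the reference of its family (RNU4-2 or RNU1-1).
RNU4-1: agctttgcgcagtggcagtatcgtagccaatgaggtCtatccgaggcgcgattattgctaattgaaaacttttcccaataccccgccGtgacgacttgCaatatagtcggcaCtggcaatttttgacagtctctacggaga
RNU1-88P: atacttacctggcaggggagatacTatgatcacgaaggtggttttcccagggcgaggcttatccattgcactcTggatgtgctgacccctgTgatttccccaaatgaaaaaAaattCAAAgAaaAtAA

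RNU4-1 differs from RNU4-2 by T37C, A88G, A99C and T113C, counted from the 5′ end of RNU4-2. The median identity to the family reference was 82.4% in 5S members, 84.8% in U1, 85.9% in U2, 85.1% in U4, 83.6% in U5 and 88.4% in U6. Only the transcribed strand was searched for pairing segments. ACTTACCTG stood in 34 of 95 U1 members and in 34.2% of all annotated U1 rows. GTAGTA, the U2 segment that pairs with the branch point, stood in 16 of 35 U2 members and in 48.5% of annotated U2 rows. A read that lies within a stretch shared by several copies cannot be assigned to one of them, so each member was also described by the share of its 50-base windows that occurs in no other annotated rRNA or snRNA transcript. That share was 0 in 7 U1 members, 15 U6 members, 6 5S members and 1 U2 member, whose values are uncertain for that reason.

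The libraries held 3741087 to 6421605 gene counts, and the 460 members took 12.8% to 14.6% of them. The targeted gene, MACROH2A1 (H2AFY in GENCODE 29), was at 92.1, 88.0 and 84.8 counts per 1000000 (CPM, over TMM-scaled library sizes) in the control libraries and at 39.0, 43.7 and 39.9 in the knockdown libraries, 2.16-fold lower by edgeR (log2 fold change -1.11, adjusted p = 0.000917). Fibroblast markers were present in every library, with a summed level of 7338 to 8378 CPM in the controls and 11720 to 12453 CPM in the knockdown, and 4 of 9 tested were higher in the knockdown. Of 5 endothelial markers, 2 were tested and both were higher in the knockdown. KDR, a VEGF receptor, had a mean of 0.346 CPM in controls and 8.17 CPM in the knockdown (log2 fold change 4.47, edgeR adjusted p = 0.00126), and TEK, the angiopoietin receptor, had 62.3 and 132 CPM (log2 fold change 1.08, edgeR adjusted p = 0.000818). The endothelial list summed to 60.8 to 65.4 CPM in the controls and 137 to 145 CPM in the knockdown, with PECAM1 at 0 in all libraries. The epithelial list summed to 27.4 to 29.7 CPM and 7.52 to 11.8 CPM, and KRT18, an epithelial keratin, was lower in the knockdown (log2 fold change -1.59, edgeR adjusted p = 0.0108). The blood list summed to 5.49 to 7.59 CPM and 4.75 to 5.44 CPM, with CD3E of T cells at 0 in all libraries and its 1 tested member not called. RNA had been depleted of ribosomal RNA before sequencing, so 5S and 5.8S values describe what was left after depletion. Reads without a unique alignment were 67.6% to 68.8% of the reads listed in the controls and 64.4% to 66.6% in the knockdown, and reads outside annotated features were 8.34% to 9.43% and 10.6% to 11.3%. The mitochondrial ribosomal RNAs, which are not members, also had lower levels in every knockdown library than in any control: MT-RNR1 had a mean of 9740 CPM in controls and 8158 in the knockdown, and MT-RNR2 had 68268 and 49164 CPM. The part of these differences in the results that follow was not tested.

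Ribosomal copies accounted for most of the members that fell: 10 of 20 5S and 5.8S members tested were lower in the knockdown and none was higher (15 lower and 0 higher at an unadjusted p under 0.05, 11 and 0 by DESeq2, 6 and 0 by limma-voom). Of 314 snRNA members tested, 10 were higher and 3 lower by edgeR, and the share higher was below that of all genes tested. This comparison was made for edgeR only. DESeq2 called more members higher, as given in the last section, and its share of all genes higher was not counted. Of 460 members, 334 passed the filter on low counts and were tested, and 13 fell while 10 rose. Over all 13445 genes tested, 4.31% were called lower and 3.9% higher by the same rule (edgeR adjusted p under 0.05). The share of all genes at an unadjusted p under 0.05 was not counted. The other 311 members tested did not pass. The groups did not overlap, with the knockdown lower, in 21 of 334 members tested, against 15.9% of all genes tested. With the knockdown higher they did not overlap in 43 of 334, against 14.5%. Both shares of members were below those of all genes. The median log2 fold change was 0.31 over 314 snRNA members tested and -2.93 over 17 5S members tested, beside 0.01 over all genes tested. A member with counts in the controls alone could pass the filter through them, so these medians do not describe the 126 members left untested.

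**Figure D1:**
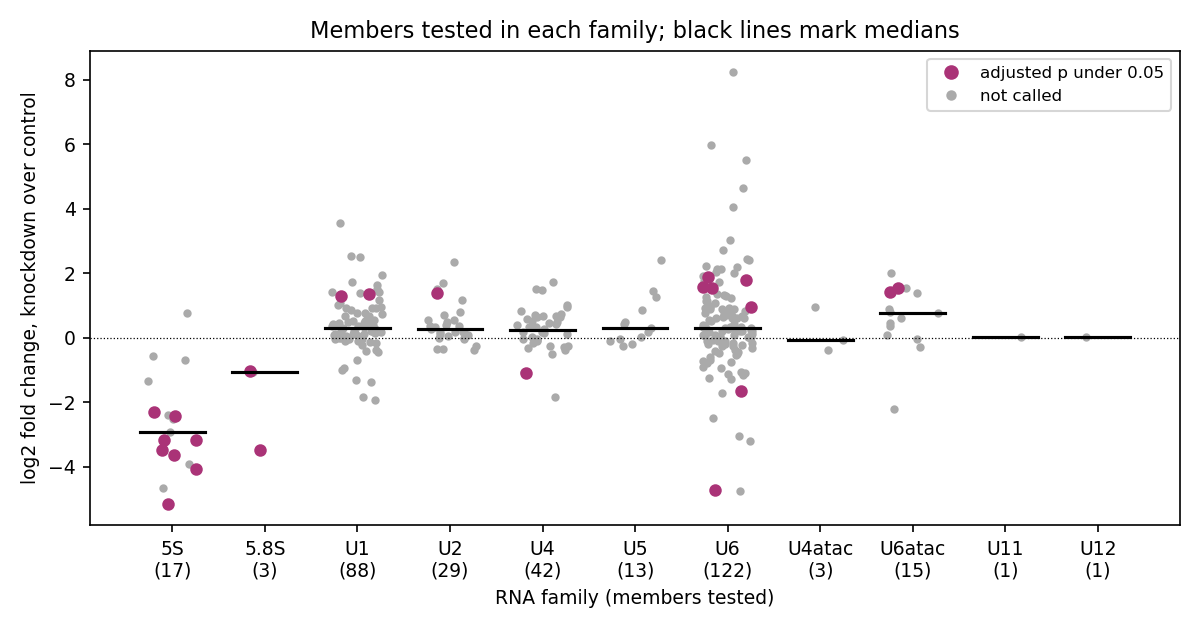
Log2 fold change (knockdown over control, edgeR) of each member tested, by RNA family, with the number tested in parentheses. Coloured points passed an adjusted p of 0.05, grey points did not, and black lines are medians: 16 of 17 5S members lie below 0. The medians of U1, U2, U4, U5 and U6 lie between 0.24 and 0.32, that of U6atac at 0.77 and that of U4atac at -0.06.

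Leaving out a library changed these counts and those of all genes, where 1104 calls in either direction became 427 to 564. The 13 lower calls became 5, 4, 3, 3 and 7 without control 1, control 2, knockdown 1, knockdown 2 and knockdown 3, and stayed at 13 without control 3. The 10 higher calls became 3, 2 and 5 without control 2, control 3 and knockdown 1. All 23 members called kept the sign of their log2 fold change in every alternative run, but 21 lost their call in at least 1; the exceptions were RNA5SP145 and RNA5SP429, a pair of 5S copies. As these are bulk libraries, fewer cells of a type and less RNA per cell cannot be told apart.

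The family with the lowest ratio of knockdown to control was 5S. Its 33 5S members added up to 791, 615 and 290 CPM in the control libraries and to 70.8, 66.3 and 153 CPM in the knockdown libraries. The groups did not overlap, control 3 was the lowest control, and knockdown 3 was the highest knockdown library. The mean was 566 ± 254 CPM (SD, n = 3) in the controls and 96.7 ± 48.8 CPM (SD, n = 3) in the knockdown, a 5.85-fold lower level. Over all 497 annotated 5S rows off chromosome Y, with no count minimum, the level was 5.75-fold lower, at 842, 657 and 317 CPM against 76.9, 72.4 and 166 CPM. The mean CPM was lower in the knockdown in 30 of 33 members, and in 14 of the 16 5S members that were not tested. Of 17 tested, 8 fell and none rose by edgeR, 9 fell by DESeq2 and 4 by limma-voom. No 5S member was called higher in any alternative run, and at an unadjusted p under 0.05 edgeR gave 13 lower and 0 higher.

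RNA5S9 is one of the numbered 5S genes of chromosome 1, and 51.4% of its 50-base windows are unique. It had 124, 97.2 and 35.9 CPM in the controls and 5.34, 8.26 and 15.5 CPM in the knockdown. Every knockdown library was below every control library, and the fit put it 8.98-fold lower (log2 -3.17 ± 0.55 SE, edgeR adjusted p = 0.0186). The call was lost in 6 of 16 alternatives. The other numbered 5S members, RNA5S14, RNA5S15 and RNA5S17, whose transcripts are identical to RNA5S1, had few counts. RNA5S15 had 35, 16 and 2 counts in the controls and 1, 18 and 55 in the knockdown, with no separation of the groups (edgeR adjusted p = 0.718). RNA5S17 had 26 of its 30 control counts in control 2 and all of its 28 knockdown counts in knockdown 2, and RNA5S14 had 5, 20 and 17 counts in the controls against 0, 0 and 4. Neither of these was tested. Identical copies thus gave different patterns, and none of their windows is unique.

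RNA5SP150, on chromosome 3, had 70.1, 64.9 and 23.8 CPM in the controls and 3.96, 1.30 and 4.29 CPM in the knockdown. Every control was far above every knockdown library, and the fit put the copy 16.8-fold lower (log2 -4.07 ± 0.54 SE, edgeR adjusted p = 0.00795). An identical transcript is annotated under another identifier, so none of its windows is unique. The positions of both entries were not compared, so the locus is uncertain. RNA5SP145, in an intron of MED12L, had 17.2, 15.5 and 6.61 CPM in the controls and 0.79, 0.87 and 1.61 CPM in the knockdown (log2 fold change -3.63 ± 0.49 SE, edgeR adjusted p = 0.0082). RNA5SP429, in an intron of CDH1, had 22.3, 13.3 and 10.6 CPM in the controls and 2.57, 2.39 and 3.75 CPM in the knockdown (log2 fold change -2.44 ± 0.36 SE, edgeR adjusted p = 0.0107). Their host genes were low: MED12L had a mean of 2.22 CPM in the controls and 1.65 in the knockdown, and CDH1, the epithelial cadherin, had 0.09 CPM in each group.

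The 5S member with the most counts, RNA5SP389, was not called. It had 198 CPM in control 1, 31.3 in control 2 and 33.8 in control 3, against 12.9, 6.96 and 26.8 CPM in the knockdown. The groups were apart, but control 1 alone set most of the control mean (log2 fold change -2.53 ± 0.86 SE, edgeR adjusted p = 0.128). RNA5SP202 was steadier in the controls, at 71.0, 56.5 and 61.6 CPM, and had 7.71, 5.87 and 25.4 CPM in the knockdown (log2 fold change -2.31 ± 0.50 SE, edgeR adjusted p = 0.0378). The other 3 copies that fell, RNA5SP267, RNA5SP149 and RNA5SP74, had lower counts, with fitted log2 fold changes of -5.14, -3.18 and -3.49 and edgeR adjusted p of 0.0282, 0.0398 and 0.0374. Each of the 3 lost its call in 7 alternatives. RNA5SP267 had 1, 1 and 7 counts in the knockdown libraries and RNA5SP74 had 0, 1 and 4, so their folds rest on few reads.

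**Figure D2:**
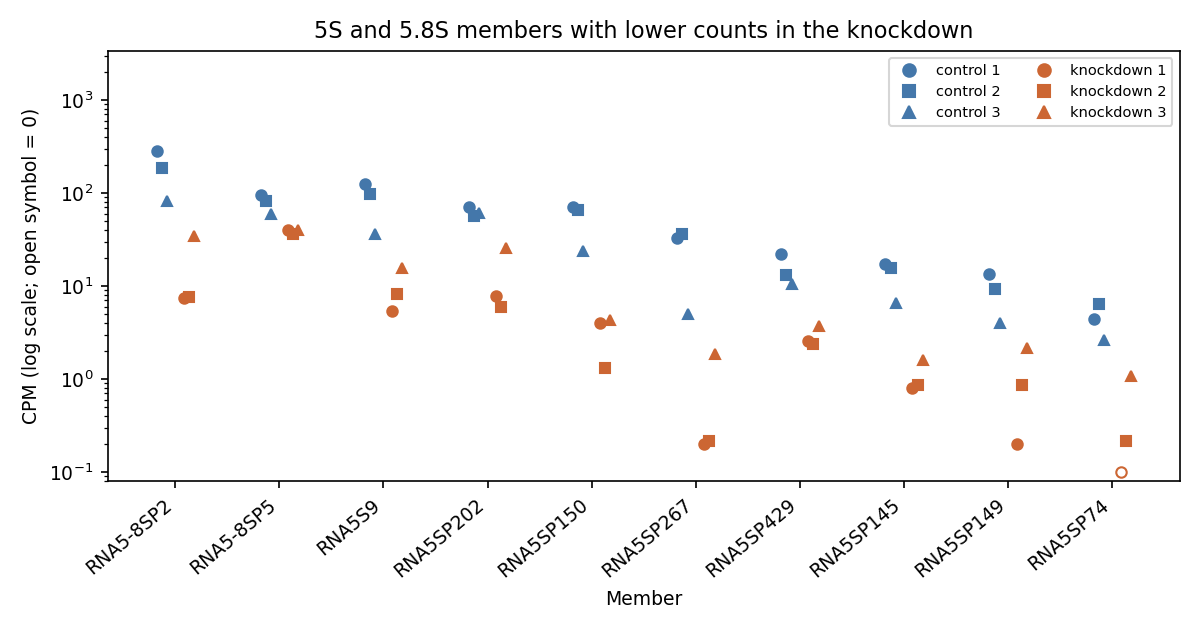
CPM (log axis) of the 8 5S and 2 5.8S members that fell in the knockdown, 1 point per library, with shapes for replicates and an open symbol for a count of 0. Knockdown points lie below all control points of the same member, and control 3 is the lowest control in 9 of the 10 members.

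The 5.8S members were 3 pseudogene copies, and 2 of them fell. They added up to 382, 274 and 141 CPM in the controls and to 48.3, 43.9 and 78.8 CPM in the knockdown, in the same library order as 5S. RNA5-8SP2, with 90.8% identity to the 5.8S reference RNA5-8SN2, had 283, 186 and 81.4 CPM in the controls and 7.52, 7.61 and 34.6 CPM in the knockdown (log2 fold change -3.49 ± 0.74 SE, edgeR adjusted p = 0.0365). RNA5-8SP5 had 95.1, 82.5 and 59.5 CPM in the controls and 39.6, 36.3 and 40.2 CPM in the knockdown (log2 fold change -1.03 ± 0.17 SE, edgeR adjusted p = 0.0154). This smaller difference came with a narrow spread in the knockdown. RNA5-8SP5 lies in an intron of ANKRD30BL on the same strand, and that gene had 317 ± 31.9 CPM in controls and 268 ± 24.9 CPM in the knockdown (SD, n = 3, log2 fold change -0.24, edgeR adjusted p = 0.235). RNA5-8SP4 had 2 to 24 counts in the controls and 0 to 15 in the knockdown and did not pass (log2 fold change -1.05 ± 1.00 SE, edgeR adjusted p = 0.583). Without RNA5-8SP2 the family was 2.04-fold lower, at 98.9, 88.0 and 59.99 CPM against 40.7, 36.3 and 44.2 CPM, in place of 4.66-fold.

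The number of 5S and 5.8S members called depended on the libraries in the fit. The 10 lower calls became 4, 3, 3, 3 and 7 without control 1, control 2, knockdown 1, knockdown 2 and knockdown 3, and 11 without control 3. RNA5SP145, RNA5SP150 and RNA5SP429 were called in every one of these fits. The summed 5S level kept its direction without any one library, with log2 ratios from -3.04 to -2.22.

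**Figure D3:**
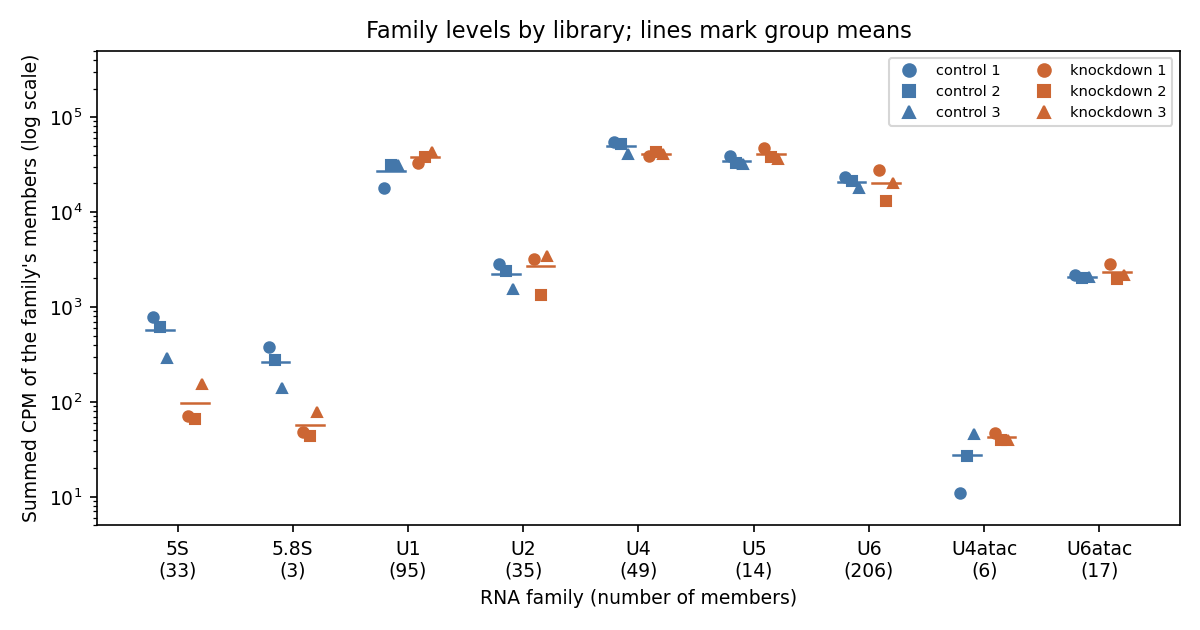
Summed CPM (log axis) of the members of each RNA family in each library, with the number of members in parentheses and lines at group means. The knockdown libraries lie below all controls for 5S and 5.8S, slightly above them for U1, and mixed with them for the other families shown.

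U1 snRNA was the only snRNA family among U1, U2, U4, U5, U6, U4atac and U6atac whose 2 groups did not overlap. This separation depended on a single copy, RNU1-88P. The 95 U1 members added up to 17727, 31592 and 31070 CPM in the controls and to 32530, 37537 and 43104 CPM in the knockdown. Control 1 was far below the others, and the gap between the highest control and the lowest knockdown library was small beside the spread within groups. RNU1-88P had 1214 CPM in control 2 and 2702 CPM in knockdown 1. Without this copy, the sum of knockdown 1 lies below that of control 2. The mean of all U1 members was 26796 ± 7859 CPM (SD, n = 3) against 37723 ± 5289 CPM, a ratio of 1.41. The 14 loci counted here as U1 genes or U1 variants include RNU1-27P and RNU1-28P, whose transcripts are identical to RNU1-1. These loci gave overlapping groups with a ratio of 1.23. The other 81 copies gave 5581, 8740 and 6465 CPM against 10929, 13058 and 15650 CPM, with no overlap and a ratio of 1.91. This result also depended on few copies. In knockdown 2, RNU1-74P had 3913 CPM and RNU1-88P had 3861 CPM, against 131 and 1214 CPM in control 2. Without both copies, the sum of knockdown 2 lies below that of control 2. RNU1-74P had 201 CPM in knockdown 1 and 176 CPM in knockdown 3.

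A transcript identical to RNU1-1 is shared by 7 U1 members, namely RNU1-1, RNU1-2, RNU1-3, RNU1-4, RNU1-27P, RNU1-28P and RNVU1-18. Together they had 11967, 22656 and 24428 CPM in the controls and 21350, 24271 and 27214 CPM in the knockdown. Single loci among them varied much more than their sum. RNU1-1 itself was even, at 5966, 5655 and 7123 CPM in the controls and 5444, 5617 and 6099 CPM in the knockdown (edgeR adjusted p = 0.606). RNU1-4 had 188, 3909 and 841 CPM in the controls and 1133, 745 and 7396 CPM in the knockdown (edgeR adjusted p = 0.702). RNU1-28P had 300, 731 and 978 CPM against 2963, 7200 and 1349 CPM, so its groups were apart without a call (log2 fold change 2.52 ± 0.68 SE, edgeR adjusted p = 0.0716). RNU1-27P was highest in control 3, at 7194 CPM, and RNU1-2 was lowest in control 1, at 819 CPM. No locus of this set passed the main test. RNU1-3 (log2 fold change 1.52) passed in 3 of 16 alternatives and RNU1-28P in 2. Among 7 further U1 variants, RNVU1-1, RNVU1-3, RNVU1-6, RNVU1-7, RNVU1-14, RNVU1-15 and RNVU1-17, none passed the main test either, with log2 fold changes from -0.01 for RNVU1-7 to 1.38 for RNVU1-3. RNVU1-15 passed in 3 of 16 alternatives.

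**Figure D4:**
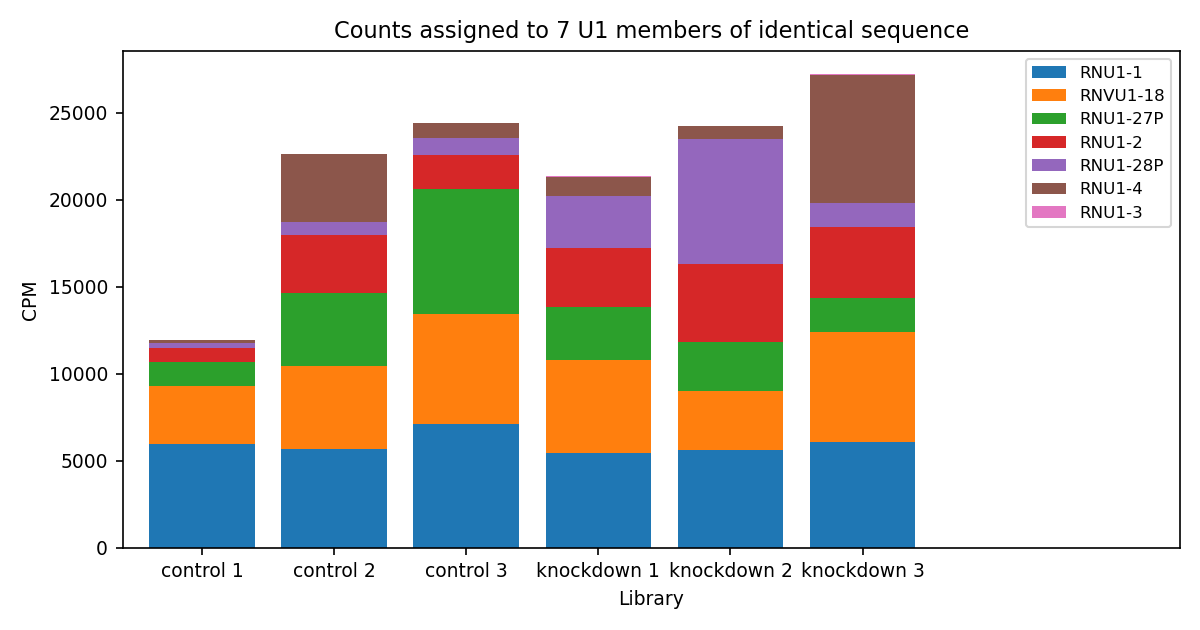
CPM assigned to each of 7 U1 members with identical transcripts, stacked for each library from 0. RNU1-1 takes 5444 to 7123 CPM in every library, while RNU1-4, RNU1-27P and RNU1-28P are large in some libraries and small in others of the same group.

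Among U1 copies with sequence of their own, RNU1-88P and RNU1-98P rose. RNU1-88P, on chromosome 6, lacks much of the 3′ part of U1 and has no window shared with another annotated copy. It had 1782, 1214 and 1108 CPM in the controls and 2702, 3861 and 4009 CPM in the knockdown (2.58-fold higher, log2 fold change 1.36 ± 0.23 SE, edgeR adjusted p = 0.0169). It was the member with the most counts of all 23 called. RNU1-98P had 2.53, 4.12 and 2.64 CPM in the controls and 7.52, 9.35 and 5.89 CPM in the knockdown (log2 fold change 1.31 ± 0.29 SE, edgeR adjusted p = 0.0399).

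U2 members added up to 2818, 2378 and 1550 CPM in the controls and to 3223, 1333 and 3453 CPM in the knockdown, which overlapped. All 35 are copies, and RNU2-1 was not analysed here. The copies with the most counts changed rank from library to library: RNU2-70P held 61.4% of the family in control 1 and 1.93% in control 3, and RNU2-59P held 13.9% and 37.6%. Neither passed the test (edgeR adjusted p = 0.913 and 0.89). RNU2-64P reached 1100 CPM in knockdown 1 against 183 to 252 CPM in the controls and did not pass (edgeR adjusted p = 0.136). RNU2-3P rose, from 36.7, 54.6 and 53.9 CPM in the controls to 162, 116 and 99.4 CPM in the knockdown (2.60-fold higher, log2 fold change 1.38 ± 0.23 SE, edgeR adjusted p = 0.0154). It kept its call in all but 2 alternatives.

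U4 had the highest summed level in the controls of any family described here, and most of it came from both U4 genes of chromosome 12. RNU4-2 had 35716, 31511 and 25591 CPM in the controls and 24359, 27535 and 24225 CPM in the knockdown, which overlapped (log2 fold change -0.29 ± 0.18 SE, edgeR adjusted p = 0.385). RNU4-1 had 16401, 15949 and 12496 CPM in the controls and 10079, 11455 and 10053 CPM in the knockdown. Its groups did not overlap, but the difference was not called (log2 fold change -0.51 ± 0.15 SE, edgeR adjusted p = 0.1), although it passed in 3 of 15 alternatives. RNU4-1 held 30.1%, 30.5% and 30.2% of U4 in the controls and 25.6%, 26.8% and 24.8% in the knockdown. Both genes can be told apart by sequence, since 87.0% of the RNU4-1 windows are unique. The other 47 U4 copies added up to 2282, 4852 and 3250 CPM against 4933, 3673 and 6196 CPM and overlapped. The third U4 member by counts, RNU4-91P, ran from 406 to 2287 CPM in the controls and did not pass (edgeR adjusted p = 0.584). RNU4-68P, in an intron of KLC1, fell from 22.1, 23.1 and 40.4 CPM to 14.0, 12.4 and 13.7 CPM (log2 fold change -1.08 ± 0.25 SE, edgeR adjusted p = 0.0452). KLC1 itself, a kinesin light chain gene, had 23.8 ± 2.24 CPM in controls and 22.5 ± 1.51 CPM in the knockdown (SD, n = 3, edgeR adjusted p = 0.795), and the copy lost its call in 7 alternatives.

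U5 came mainly from RNU5A-1, RNU5B-1 and RNU5E-1. RNU5A-1 had 17049, 14690 and 14453 CPM in the controls and 24819, 18494 and 18165 CPM in the knockdown. Its groups were apart, but the difference was not called (1.33-fold higher, log2 fold change 0.41 ± 0.18 SE, edgeR adjusted p = 0.211). RNU5B-1 had 9020, 8117 and 8667 CPM against 11733, 8166 and 9088 CPM (log2 fold change 0.17, edgeR adjusted p = 0.589), and RNU5E-1 had 9983, 7539 and 6650 CPM against 7350, 7257 and 6408 CPM (log2 fold change -0.20, edgeR adjusted p = 0.535). Both overlapped between groups. RNU5A-1 held 43.6% to 45.1% of the family in the controls and 48.3% to 52.7% in the knockdown, a description with no test. RNU5D-1 and RNU5F-1 did not pass (edgeR adjusted p = 0.947 and 0.729). The family added up to 39108, 32858 and 32022 CPM in the controls and to 47111, 38271 and 36190 CPM in the knockdown. The 9 remaining U5 copies added up to 1199, 1145 and 889 CPM in the controls and to 1417, 2883 and 1332 CPM in the knockdown. As with the other U1 copies, these groups did not overlap. The ratio was 1.74, and knockdown 2 was far above the other knockdown libraries.

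Per 100 bases of transcript, the mean control level was 21943 CPM for RNU4-2, 13273 for RNU5A-1, 10602 for RNU4-1, 7415 for RNU5B-1, 6714 for RNU5E-1, 3810 for RNU1-1 and 1288 for RNU6ATAC. These levels count uniquely aligned reads only, so U1 and U6, whose genes come in identical copies, are not comparable with U4 and U5 on this scale. The first 5 of these members held 54.4% of all member counts.

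U6 was the largest family, with 206 members, and showed no shift in its sum. The members added up to 23253, 21012 and 17912 CPM in the controls and to 27437, 13203 and 20309 CPM in the knockdown, a ratio of 0.98. The log2 ratio of -0.03 turned to 0.07 without control 1, to 0.21 without knockdown 2 and to 0.27 without RNU6-1266P. A transcript identical to RNU6-1 is shared by 6 members, which together had 4028, 1797 and 992 CPM in the controls and 1786, 2132 and 7204 CPM in the knockdown. RNU6-2 and RNU6-9, which share this sequence, went in opposite directions without a call. RNU6-2 had 1888, 464 and 169 CPM in the controls and 970, 1776 and 6670 CPM in the knockdown (log2 fold change 1.90, edgeR adjusted p = 0.307). RNU6-9 had 1850, 1110 and 408 CPM against 323, 135 and 141 CPM (log2 fold change -2.49 ± 0.60 SE, edgeR adjusted p = 0.0517), and it passed in 5 of 16 alternatives. RNU6-1, RNU6-7 and RNU6-8 overlapped between groups, with edgeR adjusted p of 0.824, 0.945 and 0.524.

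The U6 copies with the most counts were as uneven. RNU6-1266P had 2253, 9193 and 9068 CPM in the controls and 6842, 304 and 3669 CPM in the knockdown (edgeR adjusted p = 0.627). RNU6-39P had 10437 CPM in control 1 and 605 to 2355 CPM in the other 5 libraries (edgeR adjusted p = 0.534). Of 122 U6 members tested, 5 rose and 2 fell.

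RNU6-19P rose, from 19.5, 11.9 and 10.8 CPM in the controls to 43.5, 31.7 and 51.4 CPM in the knockdown (2.95-fold higher, log2 fold change 1.56 ± 0.27 SE, edgeR adjusted p = 0.0173). It lies antisense to an intron of HACD3, a fatty acid elongation enzyme gene with 126 ± 9.84 CPM in the controls and 121 ± 3.93 CPM in the knockdown (SD, n = 3, edgeR adjusted p = 0.718). RNU6-1103P had 49.99, 16.2 and 37.0 CPM in the controls and 113, 98.9 and 100.2 CPM in the knockdown (log2 fold change 1.59, edgeR adjusted p = 0.043). RNU6-12P, RNU6-144P and RNU6-25P also rose, with log2 fold changes of 1.80, 1.90 and 0.97 and edgeR adjusted p of 0.0349, 0.0439 and 0.0485. All 5 had knockdown libraries above every control, and they lost their calls in 4 to 9 alternatives. RNU6-12P and RNU6-25P differ from RNU6-1 at a single base each and have no unique window, so reads from other copies cannot be told apart from theirs.

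RNU6-61P fell, from 8.70, 52.8 and 24.1 CPM in the controls to 0.99, 0.87 and 1.34 CPM in the knockdown. The fit put it 26.3-fold lower (log2 -4.71 ± 0.81 SE, edgeR adjusted p = 0.0179), all of its windows are unique, and the call was lost in 5 alternatives. The controls differed widely among themselves, while each knockdown library held 4 or 5 reads. RNU6-1019P fell as well, from 6.01, 2.74 and 3.70 CPM to 1.38, 1.30 and 1.34 CPM (log2 fold change -1.65 ± 0.38 SE, edgeR adjusted p = 0.0453), with its call lost in 9 alternatives. It lies antisense to an intron of C20orf194, which did not pass (log2 fold change 0.19, edgeR adjusted p = 0.354).

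**Figure D5:**
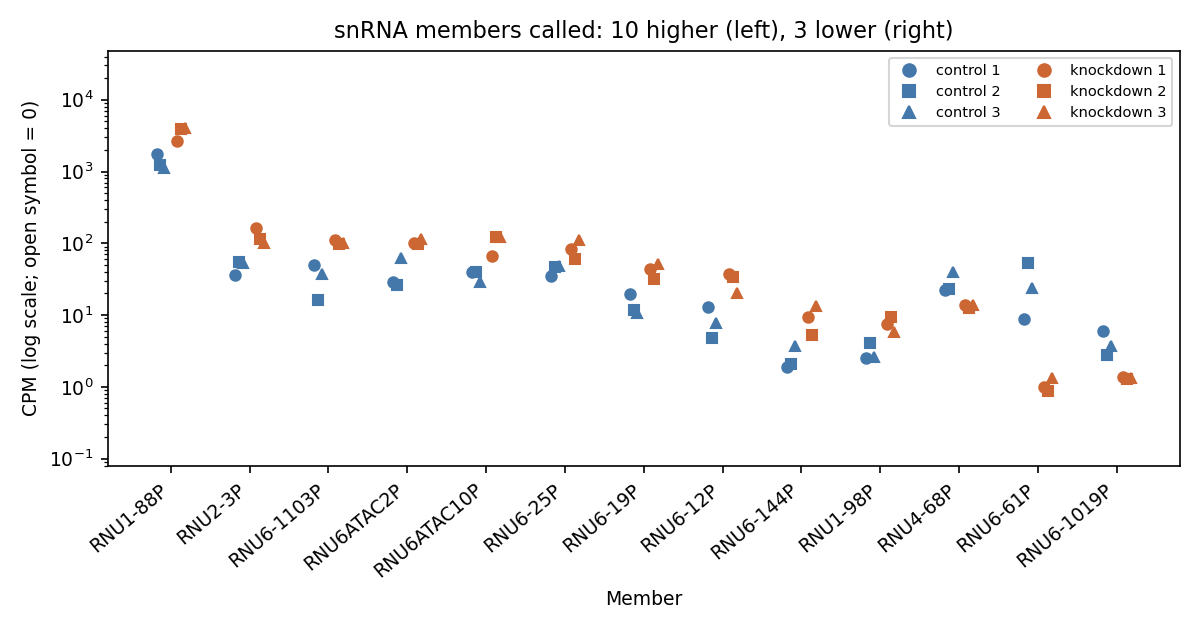
CPM (log axis) of the 13 snRNA members called, 1 point per library, with the 10 that rose on the left and the 3 that fell on the right. In each member the knockdown libraries lie on one side of all controls, and only RNU1-88P exceeds 1000 CPM.

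In the minor spliceosome families, the U6atac gene did not pass the test and a pair of its copies rose. RNU6ATAC had 1778, 1640 and 1452 CPM in the controls and 1901, 1434 and 1451 CPM in the knockdown (log2 fold change -0.02 ± 0.14 SE, edgeR adjusted p = 0.944). RNU6ATAC10P, in an intron of CHSY3, rose from 39.4, 39.3 and 29.3 CPM to 66.5, 124 and 122 CPM (2.88-fold higher, log2 fold change 1.53 ± 0.26 SE, edgeR adjusted p = 0.0164). RNU6ATAC2P rose from 28.9, 26.3 and 62.4 CPM to 101, 98.3 and 113 CPM (log2 fold change 1.42 ± 0.32 SE, edgeR adjusted p = 0.0439). RNU6ATAC5P spanned 18.2 to 381 CPM among the controls alone and did not pass (edgeR adjusted p = 0.724). U4atac had 6 members with a summed level of 10.9 to 45.5 CPM in the controls and 39.6 to 46.9 CPM in the knockdown. None of the 3 tested, RNU4ATAC10P, RNU4ATAC14P and RNU4ATAC16P, passed (edgeR adjusted p = 0.993, 0.805 and 0.508). U11 and U12 had a single copy each, RNU11-3P and RNU12-2P, with group means of 8.13 and 8.25 CPM and of 135 and 138 CPM. Their identity to RNU11 and RNU12 was 88.1% and 90.4%. The genes RNU11, RNU12 and RNU4ATAC themselves are not members. Without RNU6ATAC, the other U6atac members added up to 395, 364 and 600 CPM in the controls and 899, 541 and 713 CPM in the knockdown, which overlapped. U7 had no member, and 17 of its 148 annotated rows had any count. Together they had 2.06, 1.14 and 2.11 CPM in the controls and 0.989, 0.870 and 0.536 CPM in the knockdown. The groups did not overlap and the knockdown mean was 2.22-fold lower, but each sum rests on few counts and no row of this family was tested.

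Many members had most of their reads in 1 library. More than 50% of the summed CPM lay in a single library for 103 of 460 members, or 22.4%, against 2.51% of the 15752 gene rows with the same minimum of 30 counts. In 26 members, or 5.65%, the highest library was over 10 times the next, against 0.635% of those rows and 0.098% of protein-coding ones. Of the 26, 20 were U6 copies. The library that stood out was control 1 in 9, knockdown 2 in 7, knockdown 1 in 5, control 3 and knockdown 3 in 2 each and control 2 in 1.

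Examples from these 26, chosen after their values were seen, show the size of the effect. RNU6-1075P had 12, 11 and 2 counts in the controls and 7776, 5 and 24 in the knockdown. Its fitted log2 fold change of 8.23 was the highest of any member and was not called (edgeR adjusted p = 0.122). RNU6-364P had 5094, 10 and 10 counts in the controls and 57, 27 and 48 in the knockdown (log2 fold change -4.76, edgeR adjusted p = 0.224). RNU1-74P had 17994 counts in knockdown 2 and 526 to 1016 in the other 5 libraries. A ratio of group means for such a member describes 1 library. The median coefficient of variation within a group was 38.9% in the controls and 42.3% in the knockdown over the members tested, and 12.3% and 12.7% over all genes tested. By family it was lowest in the controls for U5, U2 and U4, at 21.4%, 22.1% and 22.7%, and 53.3% for 5S.

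The medians of members inside and outside other genes had the same sign. Among snRNA members tested, the median log2 fold change was 0.21 for 95 on the strand of a surrounding gene, 0.42 for 64 on the opposite strand and 0.33 for 155 in no other gene. For 5S it was -2.68, -2.38 and -3.17 over 4, 5 and 8 members tested. How the counting treated strand is not given in the sources used here, and reads of a member and of an overlapping gene on the other strand may not have been told apart.

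Few mRNAs for proteins that make, carry or bind these RNAs passed the test, and all that did were lower in the knockdown. Of 52 snRNP protein genes tested, which include the Sm, LSm and particle-specific proteins, SNU13 fell and none rose, with a median log2 fold change of -0.09. SNU13, which binds the U4 snRNA 5′ stem-loop, had 34.1 ± 1.13 CPM in the controls and 25.7 ± 2.45 CPM in the knockdown (SD, n = 3, log2 fold change -0.41, edgeR adjusted p = 0.0448). DESeq2 and limma-voom each called 0 genes of this list, and at an unadjusted p under 0.05 edgeR gave 6 lower and 2 higher. None of 29 genes for snRNA transcription and 3′ end processing, such as the SNAPc and Integrator subunits, and none of 18 for snRNP assembly and transport, such as the SMN complex, passed the edgeR test. Their medians were 0.02 and -0.12. At an unadjusted p under 0.05 there were 3 lower and 2 higher in the former list and 5 lower and 1 higher in the latter, DESeq2 called 0 in both, and limma-voom called 1 lower in the former and 0 in the latter.

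Of 27 genes for RNA polymerase III and 5S RNA factors tested, 3 fell and none rose (5 lower and 2 higher at an unadjusted p under 0.05, 3 and 0 by DESeq2, 4 and 0 by limma-voom), with a median of -0.14. POLR3G, an RNA polymerase III subunit with a closely related alternative in POLR3GL, had 6.17, 6.86 and 5.81 CPM in the controls and 1.78, 2.17 and 2.14 CPM in the knockdown (3.08-fold lower, log2 fold change -1.62, edgeR adjusted p = 0.00806). SSB, the La protein that binds the 3′ ends of new RNA polymerase III transcripts, had 74.8, 62.6 and 60.5 CPM against 47.9, 45.9 and 39.4 CPM (log2 fold change -0.57, edgeR adjusted p = 0.0318). BDP1, a TFIIIB subunit, had 107, 106 and 102 CPM against 79.7, 81.3 and 77.1 CPM (log2 fold change -0.40, edgeR adjusted p = 0.0142). All 3 had groups that did not overlap. Of 41 genes for RNA polymerase I and rRNA processing tested, 4 fell and none rose (15 lower and 2 higher at an unadjusted p under 0.05, 3 and 0 by DESeq2, 6 and 0 by limma-voom), with a median of -0.18. They were the nucleolar proteins NCL and NPM1, the snoRNP protein NOP58 and the polymerase I subunit POLR1E, with log2 fold changes of -0.57, -0.36, -0.42 and -0.46 and edgeR adjusted p of 0.0292, 0.0323, 0.0365 and 0.0285. Over all genes tested, 4.31% fell by the adjusted edgeR rule, and the share at an unadjusted p under 0.05 was not counted. Whether these mRNA levels bear on the 5S and 5.8S values was not tested.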

How the data were processed

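Raw read counts per Ensembl gene, as the authors deposited them for each of 6 libraries, were used as they stand. Per the submitters' processing notes, reads went through CASAVA 1.7, GSNAP and HTSeq on the build hg19; the annotation and strand setting are those of the submitters and not given in the sources used here. Ribosomal RNA was removed before library construction and the second strand was made with dUTP, per the labels' protocols. Reads with several alignments are not counted by HTSeq, so near-identical copies keep fewer counts. Lines that name no gene were left out: assigned reads were 11.9% to 13.7% of the reads listed.

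Types, symbols and transcripts came from GENCODE 29 by Ensembl identifier (47399 rows matched), which is on another build, so no coordinates are given. Genes were filtered with filterByExpr (minimum count 10), scaled with TMM and tested with edgeR 4.0.16 (glmQLFit, glmQLFTest, group only) in R 4.3.3, with Benjamini-Hochberg adjustment over all 13445 genes tested and a threshold of 0.05; SE is the log2 fold change divided by the square root of F. CPM uses TMM-scaled library sizes. A count of 3 equals 0.467 to 0.802 CPM. Family sums carry no test. Transcripts were aligned to a family reference with Biopython 1.88, and some sequences are not reported here. DESeq2 1.42.0 and limma 3.58.1 (voom), other scalings and filters, a replicate block and leaving out each library were alternatives. The fit was tested on simulated counts with the same dispersion for every gene. That test does not cover members with most of their reads in a single library. Groups and replicate numbers came from sample titles; p-values measure the spread between these libraries.

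Named were the 3 members of each family with the most counts, every member called, functional loci, and the called genes of each list, at most 5. The members and the lists of proteins and markers were chosen with earlier results of these data known. The authors' deposited comparison table was not used.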

Additional observations from a re-analysis of the deposited data

How the results depend on the processing

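Under the 3 other scalings, TMM over protein-coding genes and without the 20 most abundant genes, the count of members lower in the knockdown (13) stayed at 13 or 14 and that of members higher (10) between 9 and 11. With no filter on low counts they were 35 and 58, and with a minimum count sum of 30 they were 13 and 5. With DESeq2 they were 16 and 32, and with limma-voom 7 and 9. Over all genes, calls in either direction were 1278 of 32553 with no filter and 965 of 15752 with the minimum sum. They were 1277 by DESeq2 and 1219 by limma-voom, against 1104 in the main fit, each of 13445. The cause of these differences was not tested. At an unadjusted p under 0.05, edgeR gave 21 lower and 52 higher, and the share of all genes at that threshold was not counted. Leaving out each library in turn gave 3 to 13 lower and 2 to 12 higher. Same-numbered libraries of both groups did not deviate together (correlations of -0.01, -0.01 and -0.18 across genes), so the numbers were not taken to pair them. With a replicate block 5 members were lower and 7 higher, and 416 of 13445 genes were called in either direction. Without RNA5-8SP2 the 5.8S log2 ratio was -1.03 in place of -2.22. For U6atac, leaving out RNU6ATAC gave 0.66 in place of 0.16. The log2 ratios of 5S, U1, U2, U4, U5 and U6 moved by less than the spread between libraries under the alternatives run. U7 has no member and so no main value, and over all its annotated rows its log2 ratio was -1.15. The alternatives also turned the sign of members that were not called. Over all alternatives run, the range was -0.77 to 1.46 for RNA5S15, -0.81 to 2.59 for RNU1-4 and -0.27 to 0.75 for RNU11-3P. It was -0.88 to 0.81 for RNU12-2P, -1.40 to 0.45 for RNU2-59P and -0.92 to 2.79 for RNU2-70P. For RNU4ATAC10P it was -1.65 to 6.47, for RNU4ATAC14P -0.94 to 0.45 and for RNU5D-1 -0.20 to 0.14. Among U6 members it was -0.54 to 0.16 for RNU6-1, -1.59 to 0.81 for RNU6-39P, -0.51 to 0.49 for RNU6-7 and -1.38 to 1.87 for RNU6-8. The range was -0.16 to 0.051 for RNU6ATAC, -0.14 to 0.30 for RNVU1-18 and -0.36 to 0.41 for RNVU1-7. Limma-voom gave -0.36 for RNA5S15, 0.06 for RNVU1-7, 0.71 for RNU2-70P and 2.75 for RNU4ATAC10P, and the replicate block gave 0.0453 for RNVU1-7, 0.52 for RNU2-70P and 0.68 for RNU4ATAC10P. RNVU1-7 was at 0.0027 with upper-quartile scaling and 0.0061 with TMM over protein-coding genes, against -0.01. With 3 libraries a group, depth limits members near 30 counts, where a difference may not be detectable.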
